A study of Drosophila melanogaster with 3 samples.

Results

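The 32 genes described here encode the Polycomb group (20 genes) and the trithorax group (12 genes) of Drosophila melanogaster, chosen by name from 13945 protein-coding genes. A gene was counted as having a peak when the summit of a ChIP-seq region for the protein HLHm7 lay in the gene or within 2 kb upstream of it. Chromatin came from whole embryos of mixed sex, aged 0 to 16 h, of a transgenic strain with a stable insertion for HLHm7 fused to GFP at the C terminus, and the fusion protein was precipitated with an antibody against GFP. There were 3 biological replicates of this 1 group, and no second condition. What drives the transgene is not given in the sources used here. In whole embryos the cells that carry a peak cannot be told apart.

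Polycomb group proteins keep developmental genes, the Hox genes best known among them, silent through cell divisions, by marking and compacting chromatin. Trithorax group proteins act against this silencing through histone methylation and nucleosome remodelling. HLHm7 is the product of E(spl)m7-HLH, one of the Enhancer of split genes that Notch signalling turns on, and is a basic helix-loop-helix repressor that works with the corepressor Groucho.

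All lists read here were peak lists of the authors on genome build dm6. The optimal set held 2397 peaks that the authors derived from all replicates, the pooled list held 30000 regions, and each replicate list held 30000 regions, background included. Regions were ranked by the authors' signal within their own list, with rank 1 the highest, since the signal has no stated scale. A replicate's top regions are its 2397 highest. On chromosome 4, which carries pho, replicate 3 stood apart: it listed 260 regions there, against 35 in replicate 1 and 30 in replicate 2.

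Peaks lay at a larger share of the members of either group than of all protein-coding genes. An optimal peak was found at 8 of 20 Polycomb group genes (40.0%) and at 7 of 12 trithorax group genes (58.3%), together 15 of 32 (46.9%), against 2387 of all 13945 protein-coding genes (17.1%). The Polycomb group genes held 15 peaks and the trithorax group genes 13. The windows of the Polycomb and trithorax group genes do not overlap, so no peak could be counted for both. Members are a fixed list and not replicates, so no test was made on these counts. When only summits within 1 kb of a gene's transcription start site (TSS) were counted, the shares were 25% of the Polycomb group and 16.7% of the trithorax group (2 of 12 genes), against 12.4% of all genes. Per 100 kb of gene and upstream window there were 5.14 peaks in the Polycomb group and 5.85 in the trithorax group, against 2.53 over all genes. More than 1 peak was found at 4 of the 8 Polycomb group genes with a peak (50%) and at 3 of the 7 trithorax group genes (42.9%), against 476 of all genes with a peak (19.9%).

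Shares were also counted from the top regions of each replicate. Their SD is the spread among replicates over the same fixed genes, and not an error on the optimal shares. A top region was found at 7, 8 and 10 of the 20 Polycomb group genes in replicates 1, 2 and 3 (35.0%, 40.0% and 50%), a mean of 41.7% ± 7.64 (SD, n = 3). Of the 12 trithorax group genes 7 had one in every replicate (58.3% ± 0, SD, n = 3), and these were the same 7 genes. Over all protein-coding genes the shares were 17.3% in replicate 1, 16.6% in replicate 2 and 17.2% in replicate 3. The difference, Polycomb minus trithorax, was -23.3 points in replicate 1, -18.3 in replicate 2 and -8.33 in replicate 3, with a mean of -16.7 ± 7.64 points (SD, n = 3). It was below 0 in 3 of 3 replicates, but it was above 0 when only summits within 1 kb of a gene's TSS were counted, with a mean of 8.89 points. A top region in all 3 replicates was found at 6 of 20 Polycomb group genes (30%) and 7 of 12 trithorax group genes (58.3%), against 1604 of all genes (11.5%).

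**Figure D1:**
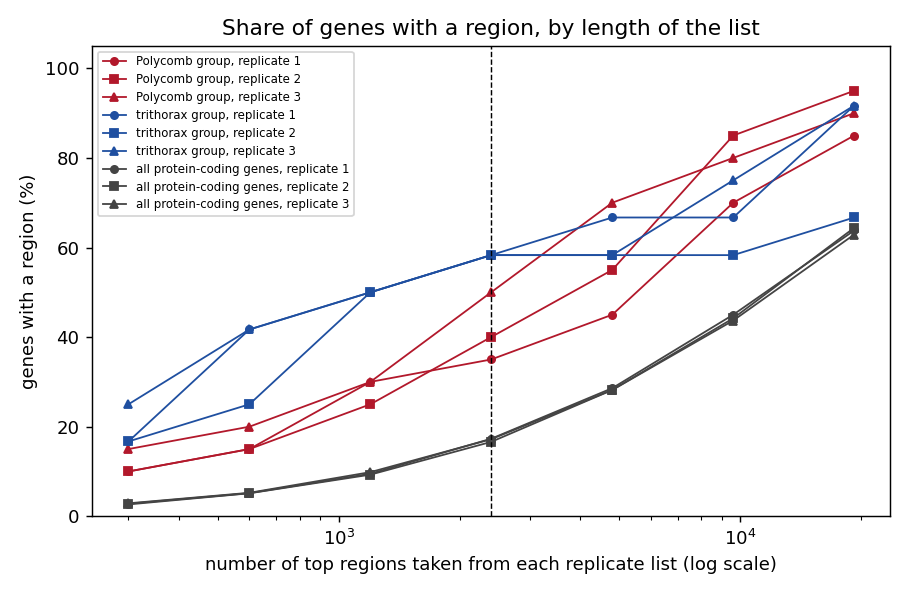
Percentage of Polycomb group genes (red), trithorax group genes (blue) and all protein-coding genes (dark grey) with a region, on the y axis, against the number of top regions taken from each replicate list, on a log x axis, with 1 line per replicate and a dashed line at 2397 regions. Up to 2397 regions the trithorax lines lie above the Polycomb lines in each replicate, and at 4800 regions the Polycomb group stands at 45%, 55.0% and 70.0% and the trithorax group at 66.7, 58.3 and 58.3% in replicates 1, 2 and 3.

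The order of the group shares changed with the length of the lists. Among the 300 top regions of replicates 1, 2 and 3 there were 2, 2 and 3 Polycomb group genes (10, 10 and 15%). There were also 2, 2 and 3 trithorax group genes (16.7, 16.7 and 25%), against 2.64 to 2.89% of all genes. At 9600 regions the shares were 70.0, 85.0 and 80.0% of the Polycomb group and 66.7, 58.3 and 75.0% of the trithorax group, against 43.7 to 45% of all genes. At the next longer length counted, the Polycomb group stood at 85.0, 95.0 and 90.0% and the trithorax group at 91.7, 66.7 and 91.7%. The trithorax group was thus ahead again in replicates 1 and 3, but not in replicate 2. In the full pooled list 19 of the 20 Polycomb group genes and 11 of the 12 trithorax group genes had some region, with a median best rank of 3384 for the Polycomb group and 816 for the trithorax group, against 7606.5 over the 76.0% of all genes with a region.

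Gene length moved with these shares. The median length was 7348.5 bp in the Polycomb group and 10713 bp in the trithorax group, against 2166 bp over all genes. Every member of 20 kb or more had an optimal peak: 1 of 1 in the Polycomb group (jing) and 5 of 5 in the trithorax group (trx, osa, kis, tara and fs(1)h), against 42.7% of all genes of that length. Among genes under 5 kb the counts were 2 of 8 in the Polycomb group and 1 of 3 in the trithorax group, against 12.3% of all genes. From 5 to 10 kb they were 2 of 6 Polycomb group genes and 0 of 3 trithorax group genes, against 23.3% of all genes. From 10 to 20 kb they were 3 of 5 Polycomb group genes and 1 of 1 trithorax group gene, against 32.8%. In the shortest class and in both classes above 10 kb the members' shares were above those of all genes, on counts of 1 to 8 genes. The part of length in the difference between the groups was not tested.

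**Figure D2:**
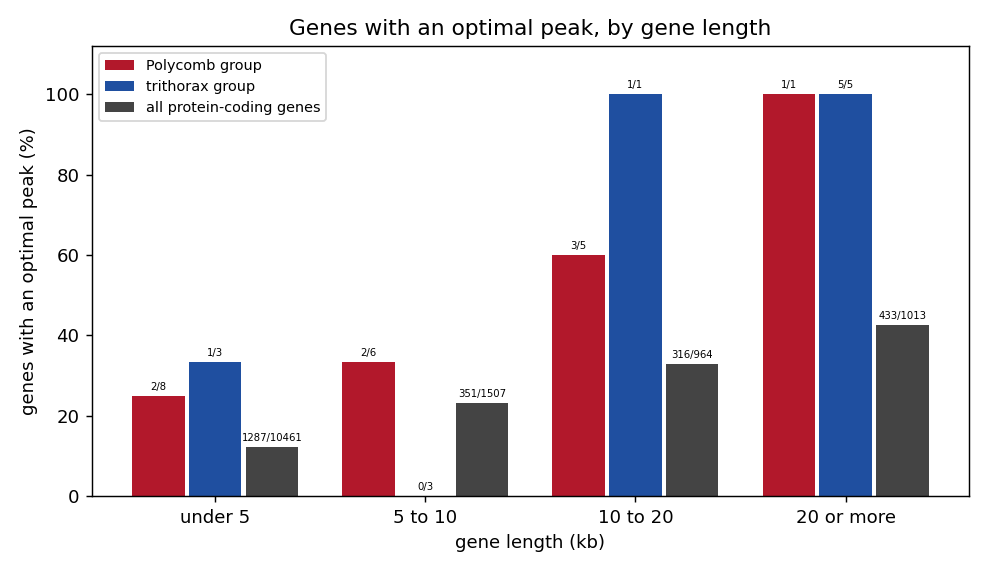
Percentage of genes with an optimal peak, on the y axis, in 4 classes of gene length (kb), on the x axis, for the Polycomb group (red), the trithorax group (blue) and all protein-coding genes (dark grey), with the number with a peak over the number of genes above each bar. All 6 members of 20 kb or more have a peak, against 433 of 1013 genes of that length.

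The sequence at the strongest peak of ph-p, osa, tara, phol and trx is shown, since these are the 5 member genes with the highest signal once those of 1 chromosome arm, Psc among them, are left aside. Each is the summit base with 50 bp on either side, from the RefSeq dm6 genome, plus strand, with capitals for matches to any of 8 motifs that were searched on both strands.
ph-p, chrX:2137297-2137397: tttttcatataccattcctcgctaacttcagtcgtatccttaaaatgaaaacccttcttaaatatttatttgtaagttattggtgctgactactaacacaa
osa, chr3R:17704370-17704470: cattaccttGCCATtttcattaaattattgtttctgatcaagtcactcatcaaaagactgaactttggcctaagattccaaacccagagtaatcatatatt
tara, chr3R:16224468-16224568: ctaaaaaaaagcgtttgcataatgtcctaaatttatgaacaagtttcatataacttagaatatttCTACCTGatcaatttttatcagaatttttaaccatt
phol, chr3L:9457748-9457848: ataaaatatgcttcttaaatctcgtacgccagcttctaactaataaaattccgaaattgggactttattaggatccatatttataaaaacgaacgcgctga
trx, chr3R:14283815-14283915: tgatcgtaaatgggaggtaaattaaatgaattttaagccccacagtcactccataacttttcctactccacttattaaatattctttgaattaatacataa
The capitals in osa mark GCCAT, the core of the site that the Polycomb group protein Pho binds, and those in tara mark the reverse complement of CAGGTAG, the site of the early embryonic activator Zelda. The windows of ph-p, phol and trx held none of the 8 motifs.

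PRC1, which ubiquitinates histone H2A and compacts chromatin, had peaks at 4 of its 7 genes counted with partners, with 10 peaks among them. Over all protein-coding genes 17.1% had a peak, and this share stands beside each count by complex below. Each complex holds at most 7 of the genes, and differences among complexes were not tested. The strongest member peak of all lay at ph-p (FBgn0004861), which encodes the Polyhomeotic subunit. It covers chrX:2137200-2137518, with a signal of 1285, and ranked 6 in the optimal set and 7, 8 and 2 in replicates 1, 2 and 3. Its summit was 492 bp upstream of an internal TSS of ph-p and 1024 bp inside the gene. A further 3 peaks lay within ph-p at ranks 519, 704 and 1827, at 408, 3022 and 3930 bp from its 5′ end. Those at ranks 519 and 704 were top regions in every replicate, and the peak at rank 1827 was one in replicates 2 and 3, with rank 8768 in replicate 1.

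The tandem copy ph-d (FBgn0004860), 2923 bp beyond the end of ph-p, encodes the second Polyhomeotic protein and had a single intergenic peak 770 bp upstream of its TSS, at chrX:2123864-2124247. This peak had a signal of 164, ranked 929 in the optimal set and 1208, 970 and 742 in replicates 1, 2 and 3. Both copies thus had top regions in 3 of 3 replicates, and the best rank at ph-p was ahead of that at ph-d in each list. The map of the loci shows 1 more optimal peak 3509 bp upstream of ph-p, at rank 1498, which lay at the gene D2hgdh and outside the 2 kb limit.

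Psc (FBgn0005624), which encodes a RING finger subunit of PRC1, had 2 peaks. The stronger had a signal of 272, covered chr2R:12975349-12975732, was intronic at 5453 bp from the 5′ end, and ranked 340 in the optimal set and 378, 370 and 288 in replicates 1, 2 and 3. The second lay 23 bp upstream of a Psc TSS and ranked 1469 in the optimal set, and 1036 and 1258 in replicates 1 and 2, while replicate 3 had no region within 200 bp of that summit. Kdm2 (FBgn0037659), a histone demethylase gene whose product joins a RING-containing complex, had 3 intronic peaks at ranks 1000, 1422 and 1977. The best of them, at chr3R:9055099-9055482, had a signal of 158 and ranked 1024, 1320 and 796 in replicates 1, 2 and 3, inside the top list each time. With summits within 50 bp in place of 200 bp, this peak was a top region in only 1 replicate. The second ranked 2567, 1962 and 532, and the third 1374, 3532 and 1872, so each of these missed the top list in 1 replicate.

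The other PRC1 genes had no optimal peak: Pc, the chromodomain protein that reads methylated histone H3, with a best pooled rank of 4797, Sce, the ubiquitin ligase, with 11240, and Su(z)2, a relative of Psc, with 12869. Their best ranks in the replicates ran from 4470 to 5460 at Pc, 4447 to 26639 at Sce and 2784 to 9588 at Su(z)2. None of these reached a top list in any replicate. An optimal peak at rank 91 lay 1570 bp past the 3′ end of Pc, at the TSS of CG11309, and ranked 82, 113 and 72 in replicates 1, 2 and 3. Scm, which encodes a protein that links PRC1 to other Polycomb complexes, had a best pooled rank of 4574, and 5742, 5862 and 5780 in the replicates.

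**Figure D3:**
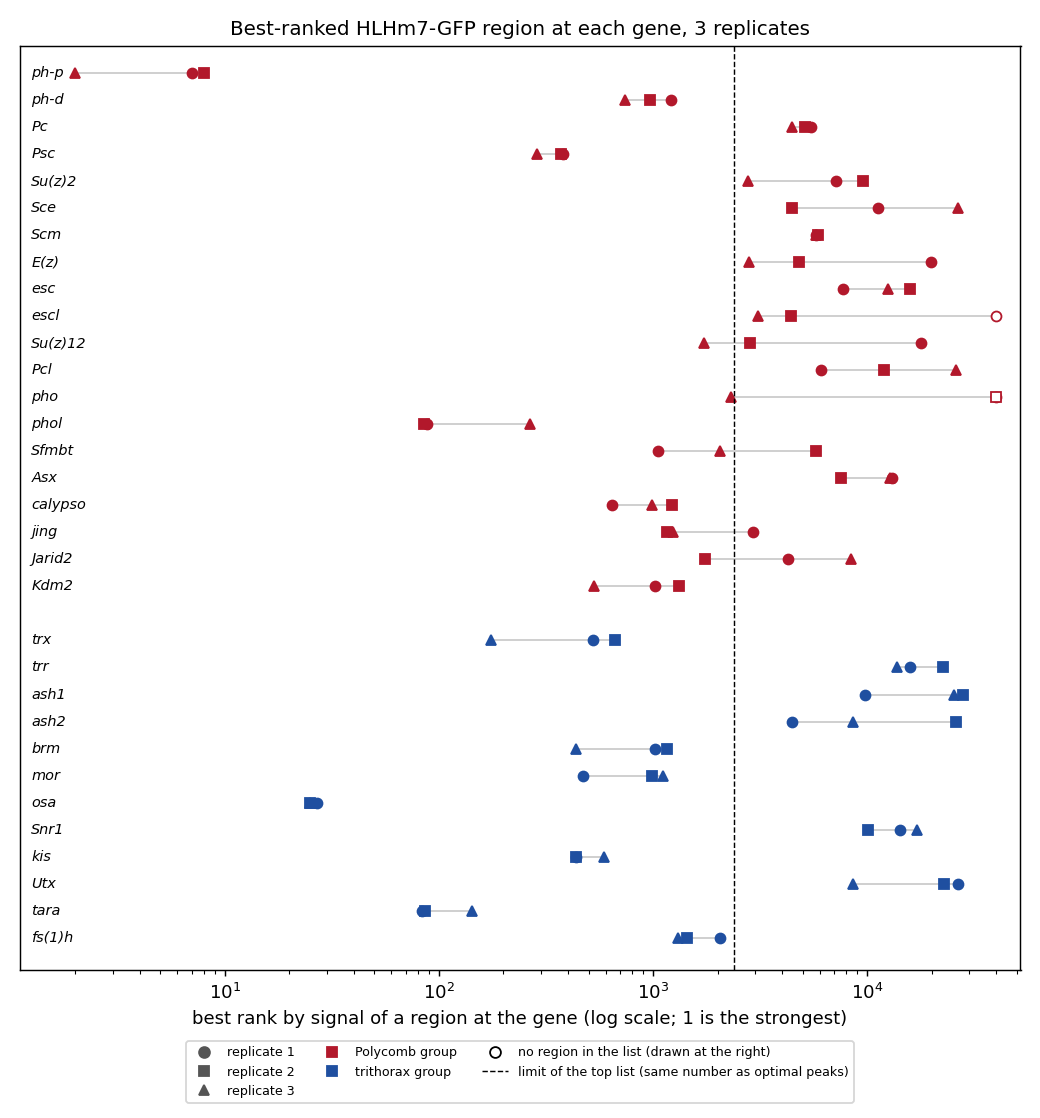
Best rank by signal of a region at each of the 32 genes in replicates 1 (circles), 2 (squares) and 3 (triangles), on a log x axis where low ranks are strong, with Polycomb group genes (red) above trithorax group genes (blue) and a dashed line at rank 2397. Open symbols at the right mark lists without a region (escl in replicate 1, pho in replicates 1 and 2, whose symbols overlie each other). The 7 trithorax group genes left of the line are there in every replicate, while 5 Polycomb group genes have symbols on both sides.

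PRC2, which methylates histone H3 and whose mark Polycomb reads, had an optimal peak at 1 of its 7 genes counted with partners. Over all genes the share was 17.1%. The gene with a peak was jing (FBgn0086655), a zinc finger gene 119.787 kb long and the longest of the 32, with 46 regions in the pooled list. A peak 1575 bp upstream of jing, at chr2R:6500239-6500622, with a signal of 106, ranked 1855 in the optimal set and 4500, 2686 and 1243 in replicates 1, 2 and 3. An intronic peak with a signal of 96.0 ranked 2190, and 7211, 1165 and 5492 in the replicates. Each of these was a top region in only 1 of 3 replicates, and not the same one. The best region at jing in replicate 1 ranked 2939, outside the top list.

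Among the genes of the PRC2 core the best pooled ranks were 3745 at E(z), the methyltransferase, 3384 at Su(z)12, 10694 at esc and 4137 at escl, the last with no region in replicate 1. The accessory genes Pcl and Jarid2 stood at 11597 and 2689. Su(z)12 was a top-region gene in replicate 3 alone, with ranks 17889, 2827 and 1734 in replicates 1, 2 and 3, and Jarid2 in replicate 2 alone, with 4262, 1753 and 8367. Near the limit of the optimal set, which ends at rank 2397, the last member peaks inside were those of Kdm2 at 1977, jing at 2190 and tara at 2262, and the first outside were further regions of jing at 2513 and 2618, followed by Jarid2 at 2689 and kis at 2709.

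PhoRC, the complex that ties Polycomb proteins to DNA, is counted here with the second Pho protein and had peaks at 2 of 3 genes. The peak upstream of phol (FBgn0035997), which encodes a DNA-binding zinc finger protein like Pho, covers chr3L:9457702-9457929, with a signal of 456. It ranked 106 in the optimal set and 88, 85 and 265 in replicates 1, 2 and 3. Its nearest TSS was that of CG3552, at -114 bp, while phol starts 1517 bp away, and the peak was also assigned to CG3437. The peak at Sfmbt (FBgn0032475), whose product binds methylated histones as the partner of Pho, lay 61 bp upstream of the Sfmbt TSS at chr2L:13176654-13177037, within 2 kb of CG43925 and CG5439 or in them. With a signal of 106 it ranked 1867 in the optimal set, and 1056, 5783 and 2062 in the replicates, outside the top list of replicate 2.

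At pho itself, which encodes the DNA-binding protein, replicates 1 and 2 and the pooled list had no region, and replicate 3 had 4, at ranks 2324, 11944, 17356 and 20854. The best of these lay just inside the top list. In that replicate 68 of the 80 protein-coding genes of chromosome 4 had some region, against 12 in replicate 1 and 11 in replicate 2, and 9 top regions lay on the chromosome, against 6 and 4. Without pho, which was set aside after its values were seen, the Polycomb group shares were 36.8, 42.1 and 47.4% in replicates 1, 2 and 3 (7, 8 and 9 of 19 genes). With pho kept and replicate 3 left out, the mean share was 37.5% in the Polycomb group and 58.3% in the trithorax group.

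PR-DUB, which removes the ubiquitin that PRC1 adds, had a peak at 1 of 2 genes. The peak at calypso (FBgn0262166), the gene of the deubiquitinase, covered chr2R:16196660-16197043, had a signal of 169.5, ranked 863 in the optimal set and 644, 1229 and 988 in replicates 1, 2 and 3, and was a top region each time. It lay 519 bp upstream of calypso, but nearer to CG42837, at -190 bp, and was assigned to CG44242 and Lipt1 as well. Asx, the gene of its cofactor, had a best pooled rank of 12419, and 13016, 7562 and 12758 in the replicates.

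In the trithorax group the histone methyltransferase genes trx and trr were counted with their partners ash2 and Utx and apart from ash1. They had a peak at 1 of 4 genes, against 17.1% of all genes. It lay in an intron of trx (FBgn0003862), the methyltransferase that names the group, 3038 bp from the 5′ end at chr3R:14283846-14283943, and at 98 bp was the narrowest member peak. With a signal of 254 it ranked 390 in the optimal set and 522, 664 and 175 in replicates 1, 2 and 3. The other 3 stood low in every list: trr, a related methyltransferase, at a best pooled rank of 19590, ash2, their cofactor, at 10979, and Utx, a histone demethylase, at 6503. The best rank of these genes in any replicate was 4445, at ash2 in replicate 1.

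The methyltransferase gene ash1 (FBgn0005386) had no region in the pooled list and ranks of 9767, 28061 and 25463 in the replicates. The highest-signal peak of the whole set, at rank 1 in the optimal set and in each replicate, had its summit 163 bp past the 3′ end of ash1, at -86 bp from the TSS of CG14100, and its region reached into ash1. The summit rule gave this peak to CG14100 and not to ash1. When any overlap by 1 bp was counted, ash1 had a peak of rank 1.

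The Brahma complex, a nucleosome remodeller, had peaks at 3 of 4 genes, 5 in all. The strongest lay in an intron of osa (FBgn0261885), which encodes a DNA-binding subunit, 13930 bp from the 5′ end at chr3R:17704266-17704552. It had a signal of 820.2 and ranked 26 in the optimal set and 27, 25 and 25 in replicates 1, 2 and 3. A second intronic osa peak at 17672 bp ranked 1123, and 1129, 1118 and 1249 in the replicates. Both osa summits kept nearly the same rank in every list.

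The ATPase gene brm (FBgn0000212) had a peak at chr3L:15982821-15983204, between its own TSS at -144 bp and that of Arl1 at -122 bp. This peak had a signal of 181 and ranked 767 in the optimal set and 1022, 1164 and 439 in replicates 1, 2 and 3. A second brm peak ranked 1768, and 1975, 1698 and 5499 in the replicates, and its summit, in an intron of brm, was nearest to the start of CG17028. The peak assigned to mor (FBgn0002783), a scaffold subunit gene, lay 1550 bp upstream of it inside Hel89B, at chr3R:15974271-15974654. It had a signal of 174 and ranked 816 in the optimal set and 473, 987 and 1112 in the replicates, a top region each time. Snr1, a core subunit gene, had a best pooled rank of 9452, with 14260, 10107 and 17170 in the replicates.

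The other 3 trithorax group genes all had peaks, 7 in total. At tara (FBgn0040071), which encodes a nuclear protein that acts with the group, 5 peaks ranked 89, 441, 1003, 1020 and 2262 in the optimal set, the largest number at any member. The strongest of them lay 1133 bp upstream at chr3R:16224428-16224616, had a signal of 490.0 and ranked 83, 86 and 142 in replicates 1, 2 and 3. Of the 5 peaks, 4 were top regions in every replicate, and the one at rank 2262 was one in replicate 3 alone. An optimal peak of rank 7 lay 3157 bp upstream of tara, with tara the nearest TSS, and ranked 8, 6 and 8 in the replicates. It fell outside the 2 kb limit, so with 5 kb upstream tara had 6 peaks and a best rank of 7.

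The gene kis (FBgn0266557), a chromatin remodeller of the CHD family, had 1 intronic peak, at chr2L:223371-223754. Its summit lay 27260 bp from the 5′ end and 1601 bp upstream of an internal kis TSS. The peak had a signal of 236 and ranked 454 in the optimal set and 438, 437 and 592 in the replicates. At fs(1)h (FBgn0004656), which encodes a bromodomain protein of the BET family, the peak at chrX:8057252-8057635 ranked 1415 in the optimal set, with a signal of 128, and 1447 and 1301 in replicates 2 and 3. Replicate 1 had no region within 200 bp of that summit, and its best region at fs(1)h ranked 2048, still a top region.

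**Figure D4:**
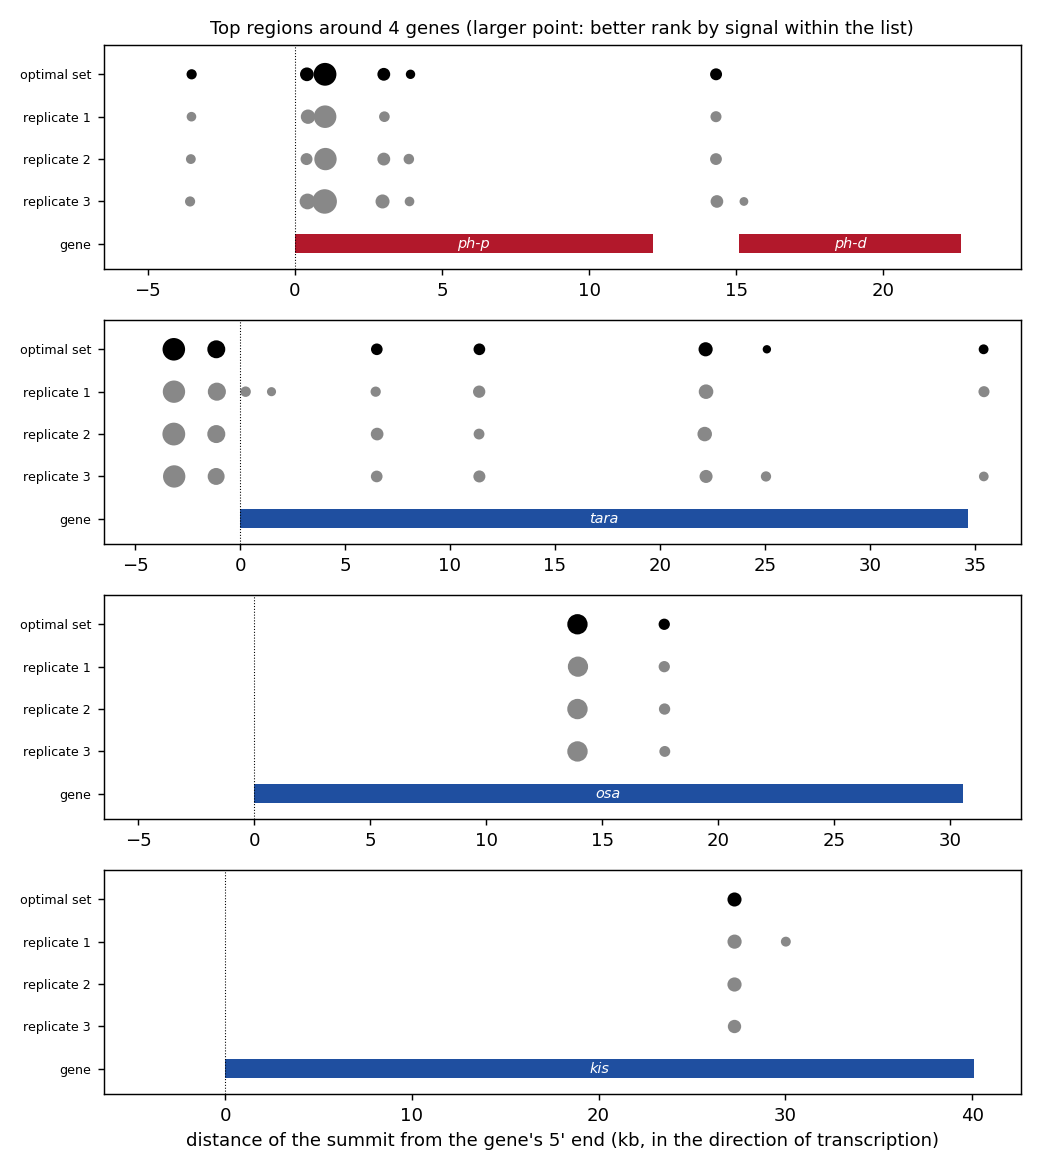
Summits of top regions around ph-p with ph-d (red bars), tara, osa and kis (blue bars), against the distance from the gene's 5′ end in kb on the x axis, with rows for the optimal set and replicates 1 to 3 and larger points for better ranks. The strongest ph-p summit is 1.024 kb inside the gene, the tara summits at -3.157 and -1.133 kb recur in every list, and osa and kis have their strongest summits at 13.93 and 27.26 kb.

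Peak positions were counted by group. Within 500 bp of any TSS were 6 of 15 Polycomb group peaks (40.0%) and 1 of 13 trithorax group peaks (7.69%), against 44.7% of all 2397 optimal peaks. In introns, beyond that distance, were 7 of 15 (46.7%) at Polycomb group genes and 11 of 13 (84.6%) at trithorax group genes, against 38.1% of all. The rest were intergenic, 2 at Polycomb group genes and 1 at trithorax group genes. Summits lay a median of 1273 bp from the nearest TSS in the Polycomb group and 3038 bp in the trithorax group, against 697 bp over all optimal peaks. With 1 kb as the limit, the promoter share was 46.7% in the Polycomb group and 23.1% in the trithorax group, against 54.8% of all. Member peaks were picked by lying in a gene or within 2 kb upstream, a rule not applied to all optimal peaks. The 13 trithorax group peaks lay at 7 genes, with 5 peaks at tara, and the intron peak of mor lay inside Hel89B. The part of this rule and of gene length in these shares was not tested.

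Recurrence among the top regions of the replicates was counted for each peak. Of the 15 Polycomb group peaks 8 (53.3%) and of the 13 trithorax group peaks 10 (76.9%) were top regions in all 3 replicates with summits within 200 bp, against 59.9% of all optimal peaks. With summits within 50 bp these were 6 Polycomb group peaks and 9 trithorax group peaks. Among the strongest 25% of all optimal peaks by signal were 4 Polycomb group peaks (26.7%) and 5 trithorax group peaks (38.5%), against 25% of the whole set by construction. Among peaks with a region in all 3 lists, replicate 3 gave the best rank for 8 of 14 Polycomb group peaks (57.1%) and 3 of 12 trithorax group peaks (25%), against 34.0% of all such peaks. These counts were not tested.

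Sequence motifs were counted from 100 bp before to 100 bp after each summit. The E-box CACGTG, of the kind that Enhancer of split proteins bind, was found at 1 of 15 Polycomb group peaks and 0 of 13 trithorax group peaks, against 2.88% of all optimal peaks. CACGCG was found at 0 Polycomb group peaks and 1 trithorax group peak, against 3.21%. The wider CACGNG, which includes both, was found at 2 Polycomb group peaks and 1 trithorax group peak, against 10.6%. The member windows that held CACGTG or CACGCG, chosen for display after their motifs were seen, are given as 41 bp of the RefSeq dm6 plus strand with the motif in capitals.
Kdm2, chr3R:9055207-9055247: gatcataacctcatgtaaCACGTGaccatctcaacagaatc
brm, chr3L:15983090-15983130: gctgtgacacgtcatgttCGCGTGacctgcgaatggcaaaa
The Kdm2 motif starts 66 bp before the summit of the peak at rank 1000, and the brm motif, CACGCG read on the minus strand, starts 95 bp after the summit of the peak at rank 767. Neither lay within 50 bp of its summit.

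GAGAG, the core of the GAGA factor site, was found at 5 Polycomb group peaks (33.3%) and 3 trithorax group peaks (23.1%), against 24.2% of all optimal peaks. GCCAT was found at 3 Polycomb group peaks (20%) and 4 trithorax group peaks (30.8%), against 28.6% of all. CAGGTAG was found at 1 Polycomb group peak, in the Psc promoter, and at 1 trithorax group peak, upstream of tara, against 0.709% of all peaks (17 of 2397). TATCGATA, the site of the promoter factor DREF, was found at 1 Polycomb group peak, at Sfmbt, and at no trithorax group peak, against 3.38%. CACCTG, another E-box, was found at 0 Polycomb group peaks and 1 trithorax group peak, against 6.09%. The median GC content of the windows was 37.3% at Polycomb group peaks and 35.8% at trithorax group peaks, against 37.3% over all.

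A further 41 genes of related chromatin factors were counted in the same way. Their median length was 7587 bp, against 2166 bp over all genes, and the part of length in their shares was not tested. An optimal peak was found at 14 of the 41 (34.1%), against 17.1% of all protein-coding genes. A top region in all 3 replicates was found at 8 of the 41, against 11.5% of all genes. Highest among them was Trl, the gene of the GAGA factor, with 4 peaks, a signal of 573 and a best rank of 63, and 70, 98 and 43 in replicates 1, 2 and 3. The next were the deacetylase gene HDAC1 at rank 266, the remodeller gene Mi-2 at 458, mod(mdg4), an insulator protein gene, at 652, and nej, the gene of the CBP acetyltransferase, at 761. Their ranks in the replicates ran from 198 to 612 at HDAC1, 345 to 599 at Mi-2, 272 to 1708 at mod(mdg4) and 437 to 1216 at nej, so each had a top region in every replicate.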

How the data were processed

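The data are peak lists from HLHm7-GFP ChIP-seq on 3 biological replicates, which the labels put in 1 group. Chromatin was sonicated to a size range of 200 to 800 bp, per the labels. The authors called regions in single replicates and in their pool, and the deposited optimal set was derived by IDR. Which aligner, peak caller and IDR cutoff were used is not given in the sources used here. The deposited signal of a region has no stated scale and served only for ranks within a list. The deposited q-value, as −log10, was read only to describe regions, and the other deposited column used was the summit offset. No read numbers are given, so depth is unknown.

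Summits were assigned to Ensembl release 115 gene models on 6 chromosome arms. Sequence came from the matching RefSeq dm6 genome. The symbol calypso was matched through a RefSeq synonym. Regions of different lists were counted as the same when their summits lay within 200 bp. The assignment was tested on simulated data. Versions were 3.11.15 of Python, 3.10.9 of Matplotlib, 1.17.1 of SciPy, 2.3.3 of pandas and 2.4.6 of NumPy. Members, lists, motifs and rules were chosen with earlier results of these data known, and so no set test was made. Every member with an optimal peak is named with its rank in every list, and every other member with its best pooled rank. Of the 41 related genes, the 5 with the highest signal are named. Sequences are those of the 5 member genes with the highest signal outside 1 arm. Alternatives were other windows, list lengths, summit distances and motif windows, and setting aside each replicate. For the optimal set, a replicate was set aside by keeping only peaks that were top regions in both other replicates. For the replicate means, it was omitted from the mean. Leaving out pho was added after seeing the data.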

Additional observations from a re-analysis of the deposited data

How the results depend on the processing

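No paired comparison of conditions was possible because the 3 replicates form 1 group. The causes of the changes below were not tested. The difference in shares, Polycomb minus trithorax, changed sign to 8.33 points (optimal set) and 8.89 points (replicate mean) when a summit had to lie within 1 kb of a TSS, and to 6.67 points with pooled regions to 2 times the optimal rank. Within 1 kb of a TSS the trithorax share was 16.7% in the optimal set, against 12.4% of all genes, and the replicate means were 28.3% (Polycomb) and 19.4% (trithorax), against 12.3%. Pooled regions to 2 times the rank gave 65.0% of the Polycomb group, against 28.1% of all genes. In the gene span alone the Polycomb share was 20%, against 7.87% of all genes, and the difference -30 points, with replicate means of 18.3% (Polycomb), 47.2% (trithorax) and -28.9 points, against 7.95%. The optimal difference was -26.7 points with 5 kb upstream or with any overlap, -20 points with the stronger 50% of the optimal peaks and -11.7 points with the nearest TSS alone. Replicate means were 28.3% (Polycomb) and 50% (trithorax) with lists 0.5 times as long, against 9.53% of all genes, and 56.7% (Polycomb), 61.1% (trithorax) and -4.44 points with lists 2 times as long, against 28.3%. In motif windows reaching 50 bp to each side, no Polycomb group peak (0%) held any of the E-box motifs or the Zelda motif. Of trithorax group peaks 0% held any E-box motif, the CACCTG site included, and 7.69% held the Zelda motif. Of all optimal peaks 1.38% held CACGTG, 1.54% CACGCG, 5.17% CACGNG, 2.96% CACCTG and 0.501% the Zelda motif. GCCAT was held by 6.67% of Polycomb group peaks and 30.8% of trithorax group peaks, against 15.9% of all. GAGAG was held by 33.3% of Polycomb group peaks and 7.69% of trithorax group peaks, against 12% of all. Leaving out each replicate gave optimal shares of 30% to 35.0% (Polycomb) and 50% to 58.3% (trithorax), against 12.2 to 12.5% of all genes, a difference of -28.3 to -15.0 points, and replicate means of 37.5 to 45% (Polycomb), 58.3% (trithorax) and -20.8 to -13.3 points. These optimal sets held only the peaks that were top regions in both remaining replicates, 1591 to 1665 of 2397. In these sets jing was lost each time, and Sfmbt without replicates 1 or 3 and fs(1)h without replicates 2 or 3. Without pho the optimal share of the Polycomb group was 42.1%. Depth is unknown, counts are small, and assignment is by position, so a peak near 2 genes counts for both.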

Other observations

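Optimal peaks outside the window, which reaches 2 kb upstream but not past the 3′ end, also lay near members that had none of their own. A peak 1867 bp past the 3′ end of Pcl, at pAbp, had rank 843 in the optimal set and ranks of 955, 786 and 1294 in replicates 1, 2 and 3. A peak 1530 bp past the 3′ end of trr, at CG14818, had rank 2177, and 2138, 2427 and 1976 in the replicates. Upstream of Psc, which had peaks of its own, a further peak at 4267 bp, with Psc the nearest TSS, had rank 656, and 443, 1192 and 515 in the replicates. The 4 optimal peaks within 10 kb of Psc and outside its window held ranks from 328 to 1079.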
